A study of Mus musculus with 18 samples.

Results

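Nuclear long noncoding RNAs are transcripts reported to stay or act inside the nucleus. Here 9 RNAs grouped under this name were followed from cultured brain cells into the small extracellular vesicles (sEVs) that such cells release. The names Malat1, Neat1, Meg3, Miat, Kcnq1ot1, Rian, Snhg11, Pantr1 and Lockd were looked up in the gene symbols of an expression table of 54307 genes, which gave 7 genes. Rian and Pantr1 carry no symbol there and were found by their Ensembl identifiers; they are described beside the other genes and left out of the counts of 7 unless that is said. The data come from primary cultures of mouse brain with 3 replicates in each of 6 groups: astrocytes, microglia and neurons, and the sEVs derived from each of these cell types. RNA from sEVs and from part of the cells that released them was copied from its poly(A) tails and amplified, and the labels name no strain, age or treatment. No fractionation of nuclei was part of these samples, so where the RNAs lay in the cells was not measured. Nothing in the labels says that the replicates of a group came from different cultures, so all p-values below measure only the spread between these samples, which may be technical.

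Long noncoding RNAs are transcribed and mostly capped like mRNA, but many are retained at chromatin or in nuclear bodies in place of being exported and translated. Malat1 gathers in nuclear speckles, which hold splicing factors, and Neat1 is the scaffold of paraspeckles, bodies built from RNA-binding proteins. Meg3 and Rian come from the maternal chromosome of one imprinted region, and Kcnq1ot1 from the paternal chromosome of another, where it silences neighbouring genes in cis. In brain, Miat and Meg3 are known from neurons, Snhg11 is a host gene of small nucleolar RNAs that is abundant in neurons, Pantr1 is transcribed next to the neural transcription factor gene Pou3f3, and Lockd lies downstream of the cell cycle inhibitor gene Cdkn1b.

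Because the libraries were primed at poly(A), the annotated RNA ends are shown first. They were read from GENCODE vM21 transcripts (mouse build GRCm38), each 5′ to 3′ in DNA letters. Malat1 and the long form of Neat1 are known to be cut by RNase P after a genomically encoded A-rich stretch, which folds back on U-rich sequence and stands in for a poly(A) tail. The 9 letters AAAGCAAAA that close this stretch are in capitals in both, with the preceding 60 bases.
Malat1-201, 292 bases before its annotated end: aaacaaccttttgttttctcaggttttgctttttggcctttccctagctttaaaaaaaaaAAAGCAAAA
Neat1-201, at its annotated end: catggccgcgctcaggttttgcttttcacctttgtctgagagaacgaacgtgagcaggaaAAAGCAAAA

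The same 9 letters, searched on the transcribed strand, occur somewhere in 2.77% of the 141767 transcripts of that annotation. Some annotated ends, that of Malat1-201 among them, lie near a polyadenylation hexamer, AATAAA or the variant ATTAAA, searched in the last 40 bases of each transcript on its own strand. That hexamer stood in 32.6% of all annotated transcripts and in 29.7% of 29501 transcripts of long noncoding RNAs. It stood in 3 of 4 transcripts of Malat1, 1 of 4 of Neat1, 4 of 11 of Meg3, 2 of 6 of Miat, 4 of 20 of Rian, 2 of 5 of Snhg11, 9 of 12 of Pantr1, 3 of 5 of Lockd and the 1 of Kcnq1ot1. The last 60 bases of 1 transcript each of Malat1, Neat1, Meg3, Miat, Kcnq1ot1 and Rian, and of spliced forms of Pantr1 and Lockd, the RNAs that were higher in sEVs, are given with the hexamer nearest the end in capitals. In Kcnq1ot1-201 an AATAAA, left in small letters, also lies in the last 40 bases, before the marked ATTAAA.
Malat1-201: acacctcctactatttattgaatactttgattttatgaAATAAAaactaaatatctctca
Neat1-202: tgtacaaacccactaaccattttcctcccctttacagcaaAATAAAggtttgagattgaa
Meg3-209: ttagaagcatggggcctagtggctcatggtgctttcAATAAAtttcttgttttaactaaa
Miat-205: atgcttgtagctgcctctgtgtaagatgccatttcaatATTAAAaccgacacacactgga
Kcnq1ot1-201: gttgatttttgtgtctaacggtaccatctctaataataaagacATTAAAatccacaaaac
Rian-202: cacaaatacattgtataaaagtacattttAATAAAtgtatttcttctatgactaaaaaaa
Pantr1-204: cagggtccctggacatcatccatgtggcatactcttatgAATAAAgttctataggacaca
Lockd-202: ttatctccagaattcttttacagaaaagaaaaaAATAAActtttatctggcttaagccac

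Runs of A inside an RNA can also bind an oligo-dT primer. Only the longest transcript of each RNA was searched for them. The longest such run there was 41 bases in Kcnq1ot1, 19 in Lockd-201, 16 in Meg3, 15 in Rian, 12 in Malat1, 9 in Pantr1, 8 in Snhg11, 7 in Neat1 and 4 in Miat. Where on each RNA the cDNA started was not analysed here.

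Values are the authors' normalized counts, which carry fractions and do not give raw reads. Their totals ran from 36947428 to 69276566 per library, so the depth behind a value is known only roughly. Differences are on the log2(normalized count + 1) scale with the SE of a limma fit over all genes with at least 10 in at least 3 libraries, and an RNA is said to have risen or fallen at a Benjamini-Hochberg adjusted p under 0.05. For sEVs against cells the fit held all 18 libraries. The SE of an RNA was therefore the same in the 3 cell types and took in the spread of all 6 groups. Summed over 12 markers each, astrocyte, microglia and neuron markers were highest in the cells of their own name. Single markers departed from this, since Gfap, Sox9, Aldoc and S100b had higher means in astrocyte sEVs than in astrocyte cells, Gjb6 was higher in neuron than in astrocyte cells, and Siglech and Tmem119 were listed at 0 in all microglia sEV libraries, and 12 oligodendrocyte lineage markers summed to 276898 to 495538 in astrocyte cells against 1034810 to 1321760 for 12 astrocyte markers. Of 12 fibroblast and mural markers 11 fell in sEVs in the mean over types (median -4.51), and so did all 8 endothelial markers tested (median -3.52), where 37.1% of all genes fell. Under quantile normalization 8 and 3 of them fell, where 21.5% of all genes did. In microglia cells the former summed to 735 to 18666 and in microglia sEVs to 0 to 564, with Col1a1, Pdgfrb and Lum at 0 there. The part of such cells in the results below was not tested. Replicates correlated at 0.964 to 0.971 within the cell groups (Pearson, all genes), at 0.958 to 0.965 in neuron sEVs, at 0.904 to 0.930 in astrocyte sEVs and at 0.865 to 0.899 in microglia sEVs.

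In the mean of the 3 cell types, weighted equally, 5 of the 7 RNAs fell in sEVs and Lockd rose, where limma called 37.1% of 19612 genes lower and 12% higher. Malat1, Neat1, Meg3, Kcnq1ot1 and Snhg11 were the 5 that fell, and Miat was not called. The median difference of the 7 was -3.72, beside -0.93 over all genes tested. With Rian and Pantr1 there were 5 lower and 2 higher of 9, since Pantr1 rose by 2.85 ± 0.49 (limma adjusted p = 0.000235) and Rian stood at -1.53 ± 1.16 (adjusted p = 0.293). Quantile normalization moved the median of all genes from -0.93 to 0.07 and the split of called genes from 2355 higher and 7283 lower to 4711 and 4225, but left 1 of the 7 RNAs higher and 5 lower. Together the 7 RNAs took 0.789 to 0.906% of the total normalized count in astrocyte cells, 0.143 to 0.254% in microglia and 1.05 to 1.54% in neurons. In the sEVs of these types the share was 0.0759 to 0.230%, 0.00570 to 0.00862% and 0.0256 to 0.0469%. In such bulk samples fewer cells of a type and less RNA per cell cannot be told apart, and likewise fewer vesicles with an RNA and fewer copies per vesicle.

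**Figure D1:**
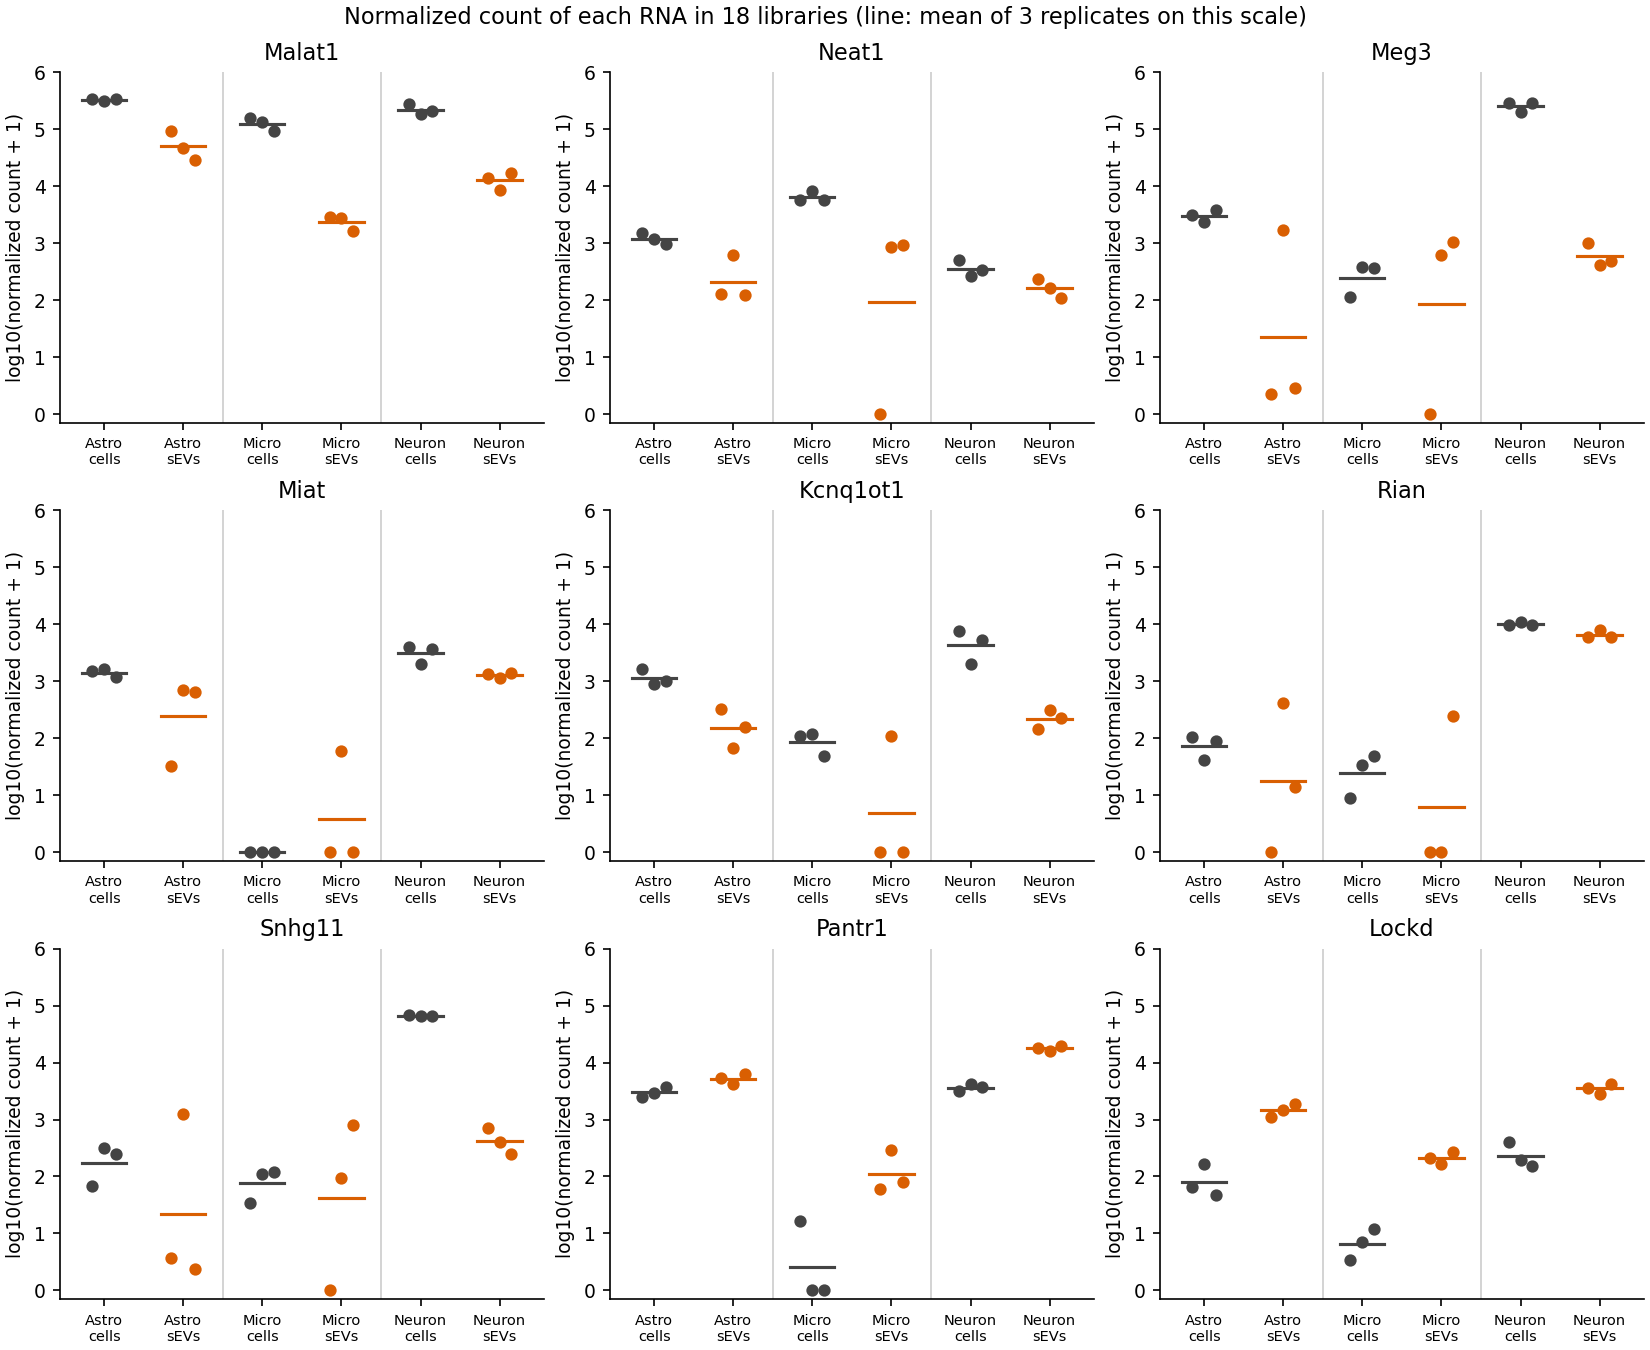
Normalized count of each of the 9 RNAs in the 18 libraries, as log10(normalized count + 1) on the vertical axis, for astrocyte, microglia and neuron cells (grey) and sEVs (orange). Points are single libraries and lines the mean of 3 replicates on this scale; Malat1 lies lower and Lockd and Pantr1 higher in the sEVs of each type without overlap.

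Malat1, the speckle RNA, was lower in sEVs of every cell type, and the size of the difference varied by type. In astrocyte cells it stood at 334925, 310584 and 340525 normalized counts, and in astrocyte sEVs at 91854, 47325 and 28401. Microglia cells held 159192, 133674 and 91940.2 and their sEVs 2859, 2740 and 1660. Neuron cells held 274366, 185574 and 208543 and neuron sEVs 14051, 8578 and 17142. No sEV library reached the lowest cell library of its type, and the microglia sEVs were the lowest of the sEV groups. The ratio of the group means, cells over sEVs, was 5.88 in astrocytes, 53.0 in microglia and 16.8 in neurons. On the log2 scale the sEVs stood at -2.72 ± 0.36 against astrocytes (limma adjusted p = 5.74e-05), at -5.73 ± 0.36 against microglia (adjusted p = 2.79e-08) and at -4.11 ± 0.36 against neurons (adjusted p = 6.04e-07). Every alternative run kept these calls, with differences of -3.16 to -2.32, -5.95 to -4.64 and -4.73 to -3.82.

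The sEV difference of Malat1 itself differed between cell types. It was 3.01 ± 0.51 log2 units smaller in astrocytes than in microglia (limma adjusted p = 0.000914 for the difference of differences) and was called in all alternatives, from 2.21 to 3.42. Neurons against microglia gave -1.62 ± 0.51 for microglia minus neurons (adjusted p = 0.0362), a call that ended with library weights (adjusted p = 0.0521) or equal library totals (-1.0, adjusted p = 0.220) and that stood at 0.092 with quantile normalization (adjusted p = 0.924). It also ended without microglia cell replicate 1 or 2 (adjusted p = 0.0883 and 0.0736), microglia sEV replicate 3 (0.0746), neuron cell replicate 2 or 3 (0.0834 and 0.0725) or neuron sEV replicate 1 or 3 (0.0748 and 0.0891). Astrocytes minus neurons stood at 1.39 ± 0.51 (adjusted p = 0.165), and passed once astrocyte sEV replicate 3 was left out (1.79, adjusted p = 0.0297) and with quantile normalization (2.30, adjusted p = 0.0218). Across all 7 RNAs, Malat1 was the 1 called for astrocytes against microglia (13.3% of all genes were called, in either direction) and for microglia against neurons (20.7%), and 0 of 7 were called for astrocytes against neurons (5.09% of all genes). Of the 7, 1 (Malat1) had an unadjusted p under 0.05 for that last pair.

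The other RNAs had differences between types that depended on the settings. Microglia minus neurons stood at 7.24 ± 3.39 for Meg3 (limma adjusted p = 0.150) and at 6.46 ± 3.15 for Snhg11 (adjusted p = 0.167). Both were called without microglia sEV replicate 1, a library listed at 0 for both RNAs (10.46, adjusted p = 0.0106, and 9.15, adjusted p = 0.0230), and with a pseudocount of 10, quantile normalization or library weights. Without that library Meg3 was also called for astrocytes minus microglia (-8.79, adjusted p = 0.0370, against -5.58 and 0.316 with all libraries). Kcnq1ot1 was called for the same pair without microglia sEV replicate 2 (3.5, adjusted p = 0.0258, against 1.24 and 0.726).

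Gm37376, a gene annotated on the opposite strand of Malat1, shares 453 bases with it at 100% identity. The library kit does not mark strand, so reads within the shared bases cannot be assigned to either gene. Gm37376 stood at 29.8 to 40.9% of the Malat1 value in every library and was likewise lower in sEVs of each type, with 120356 ± 7137 (SD, n = 3) in astrocyte cells and 18446 ± 8061 in their sEVs. Summing the pair gave differences of -2.74, -5.77 and -4.10 in astrocytes, microglia and neurons and changed no call of Malat1.

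Neat1, the paraspeckle scaffold from the same stretch of chromosome 19, was highest in microglia. Microglia cells held 5742, 8169 and 5640 normalized counts, astrocyte cells 1494, 1179 and 953.8, and neuron cells 501.9, 264.5 and 341.0. The 3 cell groups did not overlap, and limma called each pair, at 4.17 ± 0.28 for microglia minus neurons (adjusted p = 2.26e-06) and -2.43 ± 0.28 for astrocytes minus microglia (adjusted p = 7.88e-05). Astrocyte sEVs held 125.7, 615.2 and 120.5, microglia sEVs 0, 860.8 and 943.2, and neuron sEVs 233.0, 162.1 and 110.2. All sEV libraries lay below the cells of their type, yet only the microglia difference passed the test (-6.10 ± 1.81, limma adjusted p = 0.0213), while astrocytes stood at -2.49 ± 1.81 (adjusted p = 0.353, and 0.0396 with library weights or 0.0394 with only the 6 astrocyte libraries) and neurons at -1.14 (adjusted p = 0.708). The microglia value rests on replicate 1, listed at 0: without that library it was -2.83 (adjusted p = 0.00333). It was not called without microglia cell replicate 1, 2 or 3 (adjusted p = 0.0512, 0.0646 and 0.0527) or with only the 6 microglia libraries (0.151). The mean over the types was -3.25 ± 1.04 (adjusted p = 0.0185) and -2.15 without the same sEV library (adjusted p = 8.75e-05). Among sEVs no Neat1 pair was called with all libraries, and microglia minus neurons turned from -0.79 to 2.48 (adjusted p = 0.0409) without microglia sEV replicate 1.

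**Figure D2:**
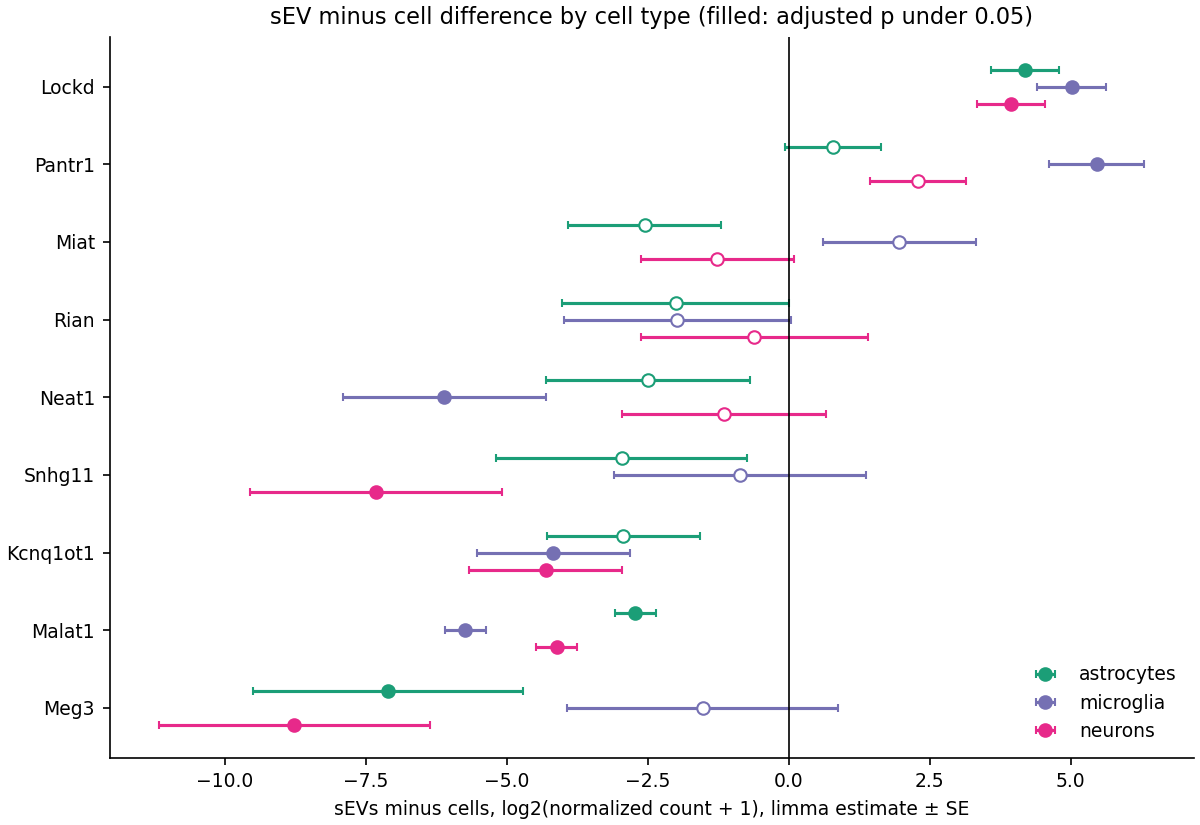
Difference between sEVs and cells for each of the 9 RNAs (rows) in astrocytes, microglia and neurons, on the log2(normalized count + 1) scale, with limma estimates as points and SE as bars. Filled points passed an adjusted p of 0.05: Malat1 and Lockd were filled in all 3 types, Meg3 in astrocytes (-7.11) and neurons (-8.77), and Rian and Miat in none.

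The imprinted RNA Meg3 was mainly neuronal, and nearly all of it was missing from neuron sEVs. Neuron cells held 286354, 202861 and 289306 normalized counts and neuron sEVs 1008, 415.2 and 481.3. The mean was 409 times as high in cells, a difference of -8.77 ± 2.40 (limma adjusted p = 0.0116) that every alternative run kept (-10.06 to -8.52, highest adjusted p = 0.0373). Astrocyte cells held 3110, 2384 and 3806 and astrocyte sEVs 1.26, 1677 and 1.85, so that replicate 2 stood near its cells and the others near 0. The astrocyte difference was -7.11 ± 2.40 (adjusted p = 0.0402). It was not called without astrocyte cell replicate 1, 2 or 3 (adjusted p = 0.0930, 0.0819 and 0.0978), without astrocyte sEV replicate 1 or 3 (0.159 and 0.137), with no filter on low values (0.0543) or with only the 6 astrocyte libraries (0.0732). Microglia cells held 111.6, 375.3 and 360.9 and their sEVs 0, 611.1 and 1048, which overlap and were not called (-1.53 ± 2.40, adjusted p = 0.759).

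Rian, which hosts small nucleolar RNAs and lies beyond Meg3 in the same imprinted region of chromosome 12, had another pattern. In neuron cells it stood at 9757, 10807 and 9553 and in neuron sEVs at 5967, 8099 and 5885. These groups do not overlap, and the sEV mean was 66.2% of the cell mean, where for Meg3 it was 0.245%. The difference of -0.61 ± 2.01, with the SE shared by all 6 groups, did not pass limma over the 18 libraries (adjusted p = 0.881). In a fit of the 6 neuron libraries it did (-0.61 ± 0.17, adjusted p = 0.0179). In the other types Rian was low and uneven. Astrocyte cells held 104.0, 39.9 and 87.4 and their sEVs 0, 413.8 and 13.2, while microglia cells held 7.87, 33.4 and 48.5 and their sEVs 0, 0 and 247.9. Without microglia sEV replicate 3 the mean over types was called (-2.41, adjusted p = 0.0372).

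Kcnq1ot1, a single-exon transcript of 93092 bases annotated on chromosome 7, was lower in sEVs in most comparisons. Neuron cells held 7615, 2019 and 5313 normalized counts and their sEVs 147.4, 308.3 and 226.8. Astrocyte cells held 1624, 910.5 and 1027 and their sEVs 319.4, 67.2 and 155.8. Neither type overlapped between cells and sEVs, and the ratio of means was 21.9 in neurons and 6.57 in astrocytes. Microglia cells held 108.6, 120.3 and 47.6 and their sEVs 0, 109.0 and 0, where replicate 2 reached the cells. The mean over types fell by 3.81 ± 0.78 (limma adjusted p = 0.00101). Neurons (-4.31 ± 1.36, adjusted p = 0.0256) and microglia (-4.17 ± 1.36, adjusted p = 0.0340) were called, while astrocytes stood at -2.93 ± 1.36 (adjusted p = 0.130).

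The single-type calls of Kcnq1ot1 moved with the libraries used. In neurons the call ended without cell replicate 1 or 3 (limma adjusted p = 0.0912 and 0.0743) or sEV replicate 1 or 3 (0.0796 and 0.0595). For microglia it ended without cell replicate 1, 2 or 3 (adjusted p = 0.0905, 0.101 and 0.0523) or sEV replicate 1 or 3 (0.132 and 0.122), and without sEV replicate 2 the difference was -6.43 (adjusted p = 1.54e-05). It also ended with a pseudocount of 10 (0.0939), equal totals (0.0547), quantile normalization (0.190), library weights (0.0814) or only the 6 microglia libraries (0.181). In astrocytes it was called with a pseudocount of 10 (0.0202), quantile normalization (0.0464), library weights (0.0335) or only the 6 astrocyte libraries (0.0179). Kcnq1, the potassium channel gene that it overlaps on the opposite strand, reached at most 23.8 in any library.

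Miat was present in neurons and astrocytes and listed at 0 in all 3 microglia cell libraries. Neuron cells held 3938, 2055 and 3769 normalized counts and neuron sEVs 1362, 1165 and 1393. Astrocyte cells held 1498, 1628 and 1182 and astrocyte sEVs 31.3, 693.0 and 639.4. In both types every sEV library lay below the cells, with sEV means at 40.2% and 31.7% of the cell means. Neither difference was called over the 18 libraries (-1.26, limma adjusted p = 0.550, and -2.55, adjusted p = 0.191), and the neuron one was with only the 6 neuron libraries (adjusted p = 0.00491). Microglia sEVs held 0, 58.1 and 0, which were not called (1.96, adjusted p = 0.333, and 0.0242 with quantile normalization).

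Snhg11 was, like Meg3, high in neuron cells and low in neuron sEVs. The cells held 68747, 64413 and 64579 normalized counts and the sEVs 721.3, 394.2 and 244.6. The ratio of means was 145, with a difference of -7.32 ± 2.23 (limma adjusted p = 0.0215). It was not called without neuron cell replicate 1, 2 or 3 (adjusted p = 0.0572, 0.0530 and 0.0561) or sEV replicate 2 or 3 (0.0542 and 0.0654). The SE in these fits is shared by all 6 groups and includes the uneven astrocyte and microglia sEVs given next. With only the 6 neuron libraries the call was kept, and all neuron sEV libraries lay below all neuron cell libraries. In astrocytes the cells held 66.3, 316.2 and 243.0 and the sEVs 2.74, 1257 and 1.33. Microglia cells held 33.3, 110.0 and 117.0 and microglia sEVs 0, 91.8 and 803.3. Both types overlapped, since single sEV libraries stood above all cells of their type, and neither was called (-2.96, adjusted p = 0.372, and -0.86, adjusted p = 0.928). Without astrocyte sEV replicate 2 the astrocyte difference was -5.87 (adjusted p = 0.0347). The mean over types, -3.72 ± 1.29 (adjusted p = 0.0269), was not called without astrocyte sEV replicate 1 or 3 (0.0552 and 0.0548).

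Astrocyte sEV replicate 2 was the high library of its group for Neat1, Meg3, Rian and Snhg11, and also for Mirg, another noncoding RNA of the Meg3 region, at 142.8 against 0 in both others. For Miat it was the highest too, but replicate 3 lay near it (693.0 and 639.4) and replicate 1 was low (31.3). The summed level of 12 neuron markers was 11571, 13301 and 9893 in these astrocyte sEV libraries, of which Gad2 and Slc17a7 were at 0, and 14706 to 19394 in astrocyte cells. In microglia the sum was 125.3, 354.6 and 311.8 in cells and 105.9, 2548 and 1996 in sEVs, where 7 of the 12 markers were above 0 and Nefl, Gad2, Dcx, Syn1 and Gad1 were not. Replicates 2 and 3, with the higher sums, were also those with Neat1, Meg3 and Snhg11 above 0. Replicate 1 was listed at 0 for Neat1, Meg3, Miat, Kcnq1ot1, Rian and Snhg11, and had 7840 genes at 10 or more, against 9865 and 10059 in the other microglia sEV libraries. Astrocyte sEV libraries had 11470, 12848 and 13962 such genes. The part of these gene numbers and of neuronal RNA in the values was not tested.

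Lockd ran the other way from Malat1 and rose in the sEVs of each cell type. In astrocyte cells it stood at 64.2, 163.2 and 46.6 normalized counts and in astrocyte sEVs at 1128, 1479 and 1854. Microglia cells held 2.36, 5.96 and 10.9 and their sEVs 214.1, 165.8 and 262.6. Neuron cells held 404.1, 191.5 and 153.1 and neuron sEVs 3600, 2814 and 4271. Each sEV library lay above every cell library of its type. The ratio of means, sEVs over cells, was 16.3, 33.5 and 14.3 in astrocytes, microglia and neurons. Limma gave 4.19 ± 0.61 (adjusted p = 0.000119), 5.02 ± 0.61 (adjusted p = 1.98e-05) and 3.94 ± 0.61 (adjusted p = 0.000146), and all alternatives run kept the 3 calls, between 3.64 and 6.04. No pair of types was called as differing in this effect. The mean, 4.38 ± 0.35, was above the difference of 99.8% of all genes tested.

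Pantr1 was higher in sEVs too, with a smaller margin in astrocytes. Astrocyte cells held 2501, 2972 and 3738 normalized counts and their sEVs 5366, 4242 and 6213. Neuron cells held 3170, 4116 and 3653 and neuron sEVs 17963, 16057 and 19373. Microglia cells held 15.6, 0 and 0 and their sEVs 59.0, 295.4 and 78.8. No group of sEVs overlapped with its cells, and the mean was 1.72 times as high in astrocyte sEVs and 4.88 times in neuron sEVs. The microglia difference of 5.46 ± 0.85 (limma adjusted p = 0.000216) rests in part on the pseudocount, since most microglia cell libraries were at 0, and was 3.17 with a pseudocount of 10 (adjusted p = 0.000185). Astrocytes stood at 0.78 ± 0.85 (adjusted p = 0.562, and 0.0421 with only the 6 astrocyte libraries) and neurons at 2.29 ± 0.85 (adjusted p = 0.0547). The neuron difference was called with a pseudocount of 10 (0.00156), quantile normalization (0.0161), library weights (0.0176) or only the 6 neuron libraries (1.75e-05). The sEV effect was smaller in astrocytes than in microglia (astrocytes minus microglia -4.68 ± 1.2, adjusted p = 0.0171), stood at -2.39 with a pseudocount of 10 (0.0301) and was not called with library weights (0.115) or the replicate block (0.0702). Microglia minus neurons stood at 3.17 (adjusted p = 0.0765) and was called without microglia cell replicate 1 (4.52, adjusted p = 0.000555), with equal totals (0.0417) and with quantile normalization (0.00633).

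By cell type, 2 of the 7 RNAs fell in astrocyte sEVs and 1 rose (18.6% of all genes fell and 8% rose there). In microglia 3 fell and 1 rose, against 21.2% and 5.08% of all genes, and in neurons 4 fell and 1 rose, against 18.9% and 11.1%. The RNA that rose was Lockd each time. The medians of the 7 were -2.72, -1.53 and -4.11, beside -0.60, -0.79 and -0.47 over all genes. Of the 21 combinations of RNA and cell type, 13 had all sEV libraries below all cell libraries, 3 had them above and 5 overlapped. The share of all genes with such a separation was not computed, so these counts describe the libraries only. The microglia count was 1 lower and 1 higher without any 1 of the microglia cell libraries, and the neuron count 2 lower and 1 higher without neuron cell replicate 1 or 3 or sEV replicate 3.

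Between cell types, microglia cells had less of 6 of the 7 RNAs than neurons and more of Neat1. For this pair 51.8% of all genes were lower in microglia and 19.9% higher. Against microglia, astrocyte cells had more of 5 (43.6% of all genes) and less of Neat1 (20.8%). Astrocytes had more Neat1 than neurons (10.4% of all genes were higher) and less of 4, Meg3, Snhg11, Kcnq1ot1 and Miat (22.1% were lower). For astrocytes minus neurons Meg3 stood at -6.39 ± 0.44 log2 units (limma adjusted p = 1.74e-05) and Snhg11 at -8.57 ± 0.63 (adjusted p = 2.46e-05). Rian, outside the 7, stood at -7.11 ± 0.63 (adjusted p = 6.31e-05), and Pantr1 did not differ by more than the error (-0.26 ± 0.96, adjusted p = 0.878). Kcnq1ot1 (-1.92, adjusted p = 0.0249) and Miat (-1.13, adjusted p = 0.0352) were near the limit. Kcnq1ot1 was not called without astrocyte cell replicate 2 or 3 (0.0812 and 0.0709) or neuron cell replicate 1 or 3 (0.0893 and 0.0819). Miat was not called without astrocyte cell replicate 1, 2 or 3 (0.0861, 0.0703 and 0.112) or neuron cell replicate 1 or 3 (0.150 and 0.141), nor with equal totals (0.0643) or quantile normalization (0.0528).

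These counts come from fits of the 9 cell libraries. When the 9 sEV libraries entered the fit as well, Snhg11 was the 1 of the 7 still called between astrocyte and neuron cells, and Meg3 was not (adjusted p = 0.0910), nor were Neat1 (0.681), Miat (0.740) and Kcnq1ot1 (0.458). Between astrocytes and microglia that fit ended the calls of Neat1 (0.316) and Meg3 (0.257), and between microglia and neurons those of Malat1 (0.0761) and Neat1 (0.0686).

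The order of Malat1 in cells was astrocytes, neurons, microglia. Astrocyte and neuron cell libraries did not overlap, but their difference was not called (0.58 ± 0.21, limma adjusted p = 0.0637). It was called without neuron cell replicate 1 (0.0399), with a pseudocount of 10 (0.0469) or with equal totals (0.0447). Microglia lay 1.39 ± 0.21 below astrocytes (adjusted p = 0.000388), and 2.17 and 2.53 below with equal totals and quantile normalization. Lockd followed the order neurons, astrocytes, microglia, with neurons and astrocytes not told apart (-1.52 ± 0.70, adjusted p = 0.137) and astrocytes 3.61 ± 0.70 above microglia (adjusted p = 0.00187, and 1.44 and 0.0983 with quantile normalization). Snhg11 and Rian were not called between astrocyte and microglia cells (1.18 ± 0.63, adjusted p = 0.134, and 1.55 ± 0.63, adjusted p = 0.0581). They were called without astrocyte cell replicate 1 for Snhg11 (1.86, adjusted p = 0.0149), and for Rian without astrocyte cell replicate 2 (1.96, 0.0358) or microglia cell replicate 3 (2.05, 0.0190). With equal totals both were called (0.0190 and 0.00775), and Rian with a pseudocount of 10 (0.0440).

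Among sEVs fewer pairs passed. Astrocyte sEVs had more Malat1, Lockd and Miat than microglia sEVs, 3 of the 7 and 0 lower (26.6% of all genes were higher and 12.9% lower). Microglia sEVs had less of 4 than neuron sEVs, Malat1, Lockd, Miat and Kcnq1ot1, and more of 0 (45.3% and 13.6% of all genes), and Pantr1 and Rian were lower as well (-7.30 ± 0.56, limma adjusted p = 1.53e-05, and -10.03 ± 2.66, adjusted p = 0.0127). Between astrocyte and neuron sEVs the 1 call was Malat1, higher in astrocytes by 1.97 ± 0.46 (adjusted p = 0.0236), beside 3.13% of all genes higher and 11.8% lower. That call ended without astrocyte sEV replicate 1 or 2 (0.0536 and 0.0554) or neuron sEV replicate 1, 2 or 3 (0.108, 0.123 and 0.0702). The Miat call against microglia (5.96, adjusted p = 0.0329) ended without astrocyte sEV replicate 2 or 3 (0.100 and 0.102) or microglia sEV replicate 1 or 3 (0.0831 and 0.0878), or with quantile normalization (0.104). The Kcnq1ot1 call (-5.51, adjusted p = 0.0288) ended without microglia sEV replicate 1 or 3 (0.0818 and 0.0822) or neuron sEV replicate 1, 2 or 3 (0.0592, 0.0795 and 0.0711), and stood at -0.55 with quantile normalization (0.766). Kcnq1ot1 between astrocyte and microglia sEVs (4.98, adjusted p = 0.0585) was called without microglia sEV replicate 2 (7.24, 0.000915). Rian between astrocyte and neuron sEVs (-8.51, adjusted p = 0.0734) was called without astrocyte sEV replicate 2 (-10.77, 0.0328), and also with a pseudocount of 10 (0.0165), quantile normalization (0.00772), library weights (0.0106) or all 18 libraries (0.00667). Malat1 thus stood in the sEVs in the order astrocytes, neurons, microglia, with 55860 ± 32576, 13257 ± 4337 and 2420 ± 661 normalized counts (SD, n = 3 each).

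Pantr1 and Lockd, which rose, have the shortest annotated transcripts of the 9 RNAs, with medians of 554 and 496 bases and longest transcripts of 2085 and 5662 bases. The medians of the others ran from 606 bases in Malat1 to 93092 in Kcnq1ot1, which has 1 transcript. Their longest transcripts ran upwards from 5864 bases in Snhg11, near the longest of Lockd, with 6983 in Malat1, 8089 in Rian, 9163 in Miat, 14548 in Meg3 and 20771 in Neat1. Of all genes tested, the 1784 whose longest transcript has up to 1000 bases had a median difference of -0.02, with 27.4% higher and 21.9% lower. From 1000 to 2000 bases (3799 genes) the median was -0.77, with 12.1% higher and 32.5% lower. For the 10347 genes of 2000 to 5000 bases, the bin of Pantr1, it was -1.19, with 8.64% higher and 42.3% lower. For the 3236 genes of 5000 to 10000 bases, the bin of Lockd, the median was -0.84, with 13.6% higher and 35% lower. Above 10000 bases it was -0.74. Most of these RNAs also have annotated transcripts under 1000 bases, and which of their transcripts gave the counts cannot be read from a table of genes. Snhg11 has a longest transcript that the annotation lists as protein-coding.

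**Figure D3:**
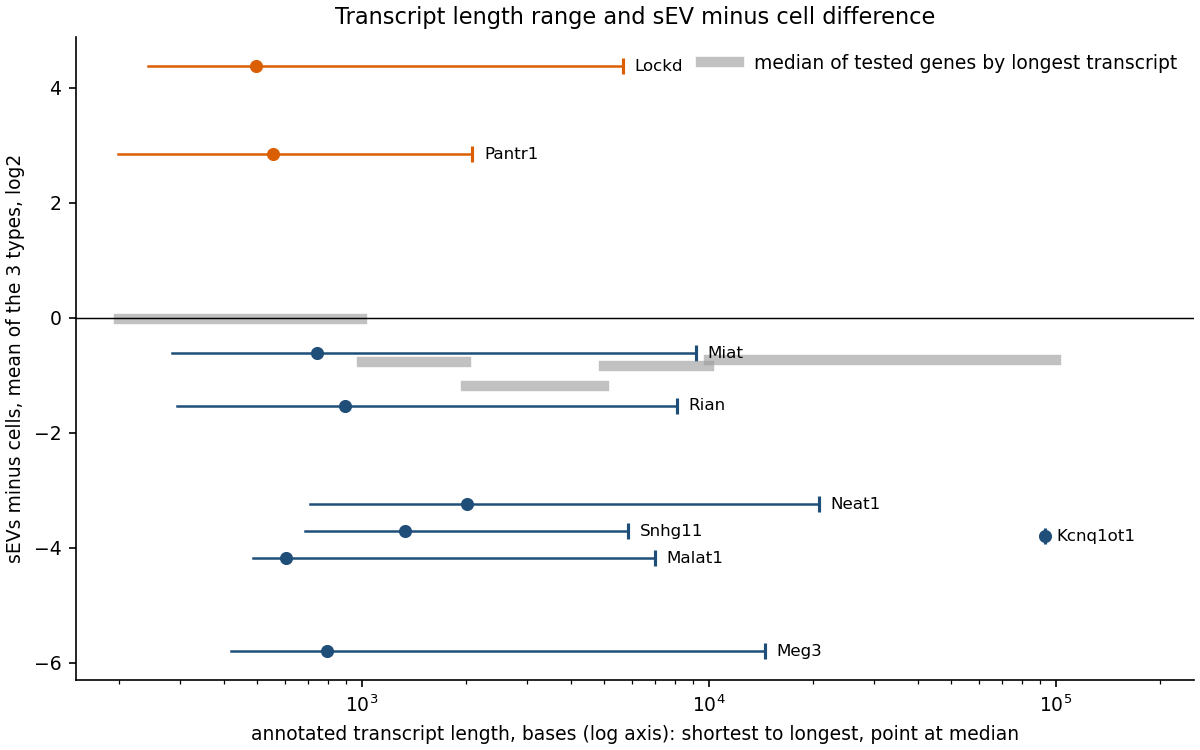
Annotated transcript lengths of each RNA (horizontal log axis, bases; line from shortest to longest, point at the median) against the mean difference between sEVs and cells over the 3 types (log2). Grey bars are medians of all genes tested, in bins of longest transcript; Pantr1 and Lockd are the RNAs above 0.

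The genes that flank these RNAs were set beside them. Pou3f3, divergent from Pantr1 at 925 bases in the annotation, averaged 1807 ± 338 normalized counts in astrocyte cells and 7179 ± 3586 in their sEVs, and 1920 ± 299 and 6396 ± 292 in neurons (SD, n = 3 each). Its difference was not called (mean over types 1.11, limma adjusted p = 0.242). Cdkn1b, on the other side of Lockd by 3578 bases, stood at 0.17 (adjusted p = 0.812), with 218 ± 70.3 in neuron cells and 203 ± 69.9 in neuron sEVs. Dlk1, the paternally expressed signalling gene beside Meg3, fell in sEVs (-3.83, adjusted p = 0.00196), and so did Lbp, the lipopolysaccharide-binding protein gene beside Snhg11 (-6.49, adjusted p = 5.9e-07). Lbp was listed at 0 in all astrocyte sEV libraries and averaged 95.3 ± 52.5 in astrocyte cells. Ralgapb on the other side of Snhg11 was not called (0.69, adjusted p = 0.0680).

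In the regions of Meg3, Rian and Kcnq1ot1, 6 of 12 other genes tested fell in the mean over types and 0 rose (37.1% of all genes fell and 12% rose), with a list median of -0.75 beside -0.93 over all genes. With quantile normalization it was 4 lower and 2 higher (21.5% and 24% of all genes) with a median of 0.04. The tetraspanin gene Cd81 (-3.07 ± 0.15), the transporter gene Slc22a18, listed at 0 in astrocyte and microglia sEVs (-3.95 ± 0.56), and the histone chaperone gene Nap1l4 (-0.69 ± 0.14) were among them.

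Other long noncoding RNAs reported in the nucleus or at chromatin fell in 10 of the 18 tested and rose in 0 (37.1% of all genes fell and 12% rose), with a median of -1.26. With quantile normalization 6 fell and 2 rose (21.5% and 24% of all genes), with a median of -0.31. Xist, which coats the inactive X chromosome, stood at -4.72 ± 0.44 (limma adjusted p = 5.44e-07) and its antisense partner Tsix, which shares reads with it in unstranded data, at -6.82 ± 0.90 (adjusted p = 1.97e-05). Rmst, a neural transcript, stood at -3.34 ± 0.46 (adjusted p = 2.85e-05) and at -0.81 with quantile normalization (adjusted p = 0.260). By cell type 5 of the 18 fell in each of astrocytes, microglia and neurons, where 18.6%, 21.2% and 18.9% of all genes fell, and 1 rose in neurons.

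Spliced long noncoding RNAs reported in the cytosol rose in 8 of 17 and fell in 3 (12% of all genes rose and 37.1% fell), with a list median of 0.76. With quantile normalization 11 rose and 2 fell (24% and 21.5% of all genes), with a median of 1.33. The difference between this list and the nuclear one was not tested. Oip5os1, also called Cyrano, rose by 1.89 ± 0.13 (limma adjusted p = 2.8e-08), Gas5, a host of small nucleolar RNAs, by 1.22 ± 0.11 (adjusted p = 4.51e-07), and Norad, which binds Pumilio proteins, by 0.76 ± 0.10 (adjusted p = 2.25e-05). In neurons 7 rose and 0 fell (11.1% and 18.9% of all genes), in astrocytes 4 rose and 2 fell (8% and 18.6%), and in microglia 4 rose and 3 fell (5.08% and 21.2%). Lockd and Pantr1 are spliced RNAs as well, and their differences of 4.38 and 2.85 were above the highest of this list, 1.89. With quantile normalization Lockd (5.74) was above its highest, 3.44 for Epb41l4aos, and Pantr1 (3.38) was not.

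The mRNAs of proteins that share the bodies with Malat1 and Neat1 were mixed. Of 16 paraspeckle protein genes 11 fell and 2 rose in the mean over types (37.1% of all genes fell and 12% rose), with a median of -0.98, near the -0.93 of all genes. The RNA-binding protein genes Ewsr1 and Hnrnpk stood at -1.28 ± 0.10 and -1.05 ± 0.11. Of 16 speckle protein genes 8 fell, 3 rose and 5 were not called, with a median of -0.33, above that of all genes. The splicing factor genes Sf3b1, Srsf2 and Srsf7 stood at -2.17 ± 0.13, -2.47 ± 0.17 and -1.43 ± 0.10. Those that rose, chosen here after their values were seen, were the kinase gene Dyrk1a (1.68), the speckle scaffold gene Son (1.09) and the splicing factor gene Srsf1 (0.51). Equal totals gave 11 lower and 0 higher for paraspeckles (38.5% and 11.1% of all genes), and quantile normalization 7 lower and 5 higher for speckles (21.5% and 24%). Mitochondrially encoded mRNAs, which also stay inside an organelle, fell in 13 of 13 with a median of -4.15. All genes with names starting in mt-, not only these 13, went from 5.79% of the total in astrocyte cells to 0.318% in their sEVs. They went from 1.11 to 0.141% in microglia and from 5.53 to 0.317% in neurons (group means). By type the medians of the 13 mRNAs were -4.57 in astrocytes, -3.75 in microglia and -4.59 in neurons. Malat1 stood at -2.72, -5.73 and -4.11 in the same order. Any link between the mitochondrial falls and those of Malat1, Neat1, Meg3, Kcnq1ot1 and Snhg11 was not tested.

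**Figure D4:**
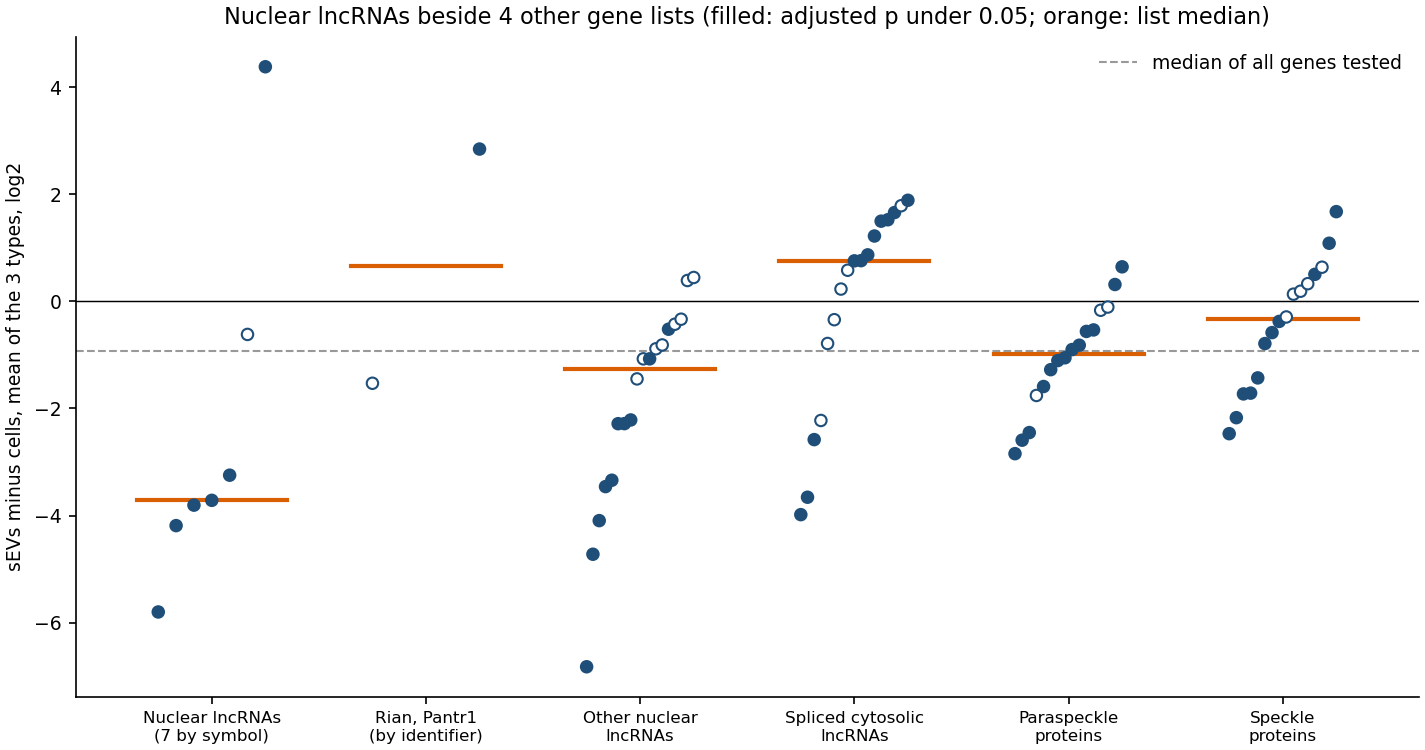
Mean difference between sEVs and cells over the 3 types (log2, vertical axis) for the nuclear long noncoding RNAs, Rian and Pantr1, and 4 other gene lists; each point is a gene, filled where the adjusted p was under 0.05. Orange lines are list medians (-3.72 for the 7 RNAs, 0.76 for spliced cytosolic RNAs) and the dashed line is the median of all genes, -0.93.

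The genes most like each RNA over the 18 libraries were found among 13218 genes, by Pearson correlation of log2 values, as a description in which the points share cell types, libraries and scaling. For Malat1 these were Serpina3n (0.96), Scarb2 (0.95) and Ctns (0.95), and for Neat1 Cog2, Med15 and Cln6 (0.93 each). Meg3 and Snhg11 shared their nearest gene, Plppr4 (0.92 and 0.96), followed by Syngr3 for Meg3 and L1cam and Slitrk4 for Snhg11. Miat stood nearest to Klhl32 (0.97), Tmem132b and Jakmip2, Kcnq1ot1 to Cnih1 (0.96), Clasp2 and Cers4, and Rian to Zfp385b (0.95), Rbfox1 and Chrm1. For Pantr1 they were Ss18l2 (0.96), Pmm1 and Smim45, and for Lockd Arpc5l (0.95), Hcfc1r1 and Lsm7.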

How the data were processed

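The authors deposited 1 table of normalized counts (signal values) for 54307 genes in 18 libraries, 3 in each of 6 groups. Salmon 1.8.0, DESeq2 and the build GRCm39 are named in these steps, per the submitters' processing notes. Per the labels' protocols, cDNA was primed with oligo-dT, and libraries were amplified with PCR and tagmented. Only 2.90 to 9.04% of low values (up to 100) were whole within 0.001 after division by the commonest value of the library, so no count model was run. Values were tested as log2(value + 1) with limma 3.58.1 under R 4.3.3 (linear models with a trended empirical Bayes step), over all genes with at least 10 in at least 3 libraries, with Benjamini-Hochberg adjustment and a threshold of 0.05. Fits used all 18 libraries for sEVs against cells and the 9 cell or 9 sEV libraries for pairs of cell types, and were first tested on simulated data. The RNAs and gene lists were chosen with earlier results of these data known. Named by rule were all 9 RNAs, 3 most alike genes each with a mean of at least 50, flanking protein-coding genes and up to 3 genes with the smallest p per list; others were chosen after their values were seen. Some genes that the rule names are not reported here. Rian and Pantr1, and mitochondrial genes, were matched by identifier. Transcript sequences, lengths and flanking distances came from GENCODE vM21 (GRCm38), which is not the build of the deposited values, and coordinates are left out, and a length was found for 99.8% of the genes tested. Shared sequence was searched with blastn 2.17.0 at 95% identity over 300 bases. Alternatives were pseudocount 10, no filter, equal totals, quantile normalization, library weights, a replicate block, other sets of libraries and each library left out.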

Additional observations from a re-analysis of the deposited data

Results flagged for a closer look

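The difference between sEVs and cells was itself called as differing between cell types for Malat1 and Pantr1. For Malat1 astrocytes minus microglia stood at 3.01 log2 units (limma adjusted p = 0.000914). Microglia minus neurons stood at -1.62 (adjusted p = 0.0362), a call that ended with equal totals, library weights or some single libraries left out. With quantile normalization it stood at 0.092 (adjusted p = 0.924). For Pantr1 astrocytes minus microglia stood at -4.68 (adjusted p = 0.0171, and 0.0702 with the replicate block or 0.115 with library weights). As deposited, the estimate farthest from 0 was that of microglia for both RNAs, at -5.73 for Malat1 and 5.46 for Pantr1. The latter was 3.17 with a pseudocount of 10.

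The authors' deposited table also has a column per group. It equals the mean of the 3 replicates in 5 groups, but in microglia sEVs for only 1477 of the 18481 genes with a value (7.99%, within 0.01 plus 0.01%). In that column of the authors' deposited table Meg3 stands at 5139, Snhg11 at 20051.6 and Pantr1 at 211.9, where the means of the deposited microglia sEV replicates are 553, 298 and 144. Rian stands at 0 there, against a replicate mean of 82.6. How the column was made was not analysed here, and no result above uses it.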

How the results depend on the processing

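Malat1 and Lockd were called in the same direction in sEVs of all 3 types under every alternative run. Counts of the 7 RNAs called changed by over 1.5 times as follows. For sEVs against cells, astrocytes went from 3 to 5 with library weights and microglia from 4 to 2 with only their 6 libraries. The sEV effect of astrocytes against microglia went from 1 to 2 with quantile normalization and with Rian and Pantr1 (added after seeing the data), astrocytes against neurons from 0 to 1 with quantile normalization, and microglia against neurons from 1 to 3 with a pseudocount of 10, 0 with equal totals, 3 with quantile normalization and 2 with library weights. Cells of astrocytes against neurons went from 5 to 1 in the fit of all 18 libraries, and sEVs of that pair from 1 to 2 with a pseudocount of 10 and with library weights. Reversed were Malat1, microglia against neurons, from -1.62 to 0.092 with quantile normalization, and Neat1 in microglia against neuron sEVs, from -0.79 to 2.48 without microglia sEV replicate 1 (range over all libraries left out -2.46 to 2.48); the cause was not tested.

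With each library left out the counts ranged from 5 to 6 for the mean over types, 2 to 4 in astrocytes, 2 to 4 in microglia and 3 to 4 in neurons. For the sEV effects they ranged from 1 to 2 (astrocytes against microglia), 0 to 1 (astrocytes against neurons) and 0 to 3 (microglia against neurons). In cells the pairs gave 6 to 7, 3 to 5 and 7 to 7, and in sEVs 2 to 4, 0 to 1 and 3 to 4, in the same order.

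Same-numbered cell and sEV libraries deviated together by -0.0517 to 0.0709 (Pearson), and differently numbered ones by -0.0738 to 0.0672. In microglia each same-numbered value lay above every differently numbered one, in neurons those of replicates 2 and 3 did, and in astrocytes none did. The main fits did not take the numbers as pairs, and these values do not settle whether they are. The replicate block left all counts of the 7 RNAs as they were (for example 6 in the mean over types), ended the Pantr1 difference between astrocytes and microglia (adjusted p = 0.0702) and the Miat difference between astrocyte and neuron cells (0.0666), and called Malat1 in the latter pair (0.0442).

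Counts over all genes moved by over 1.5 times in sEVs against cells of microglia (5147 to 3384 with library weights) and neurons (5890 to 9158 with library weights and 9383 with only their 6 libraries). They did so for the sEV effect of astrocytes against microglia (2608 to 1699 with library weights) and against neurons (999 to 566 with the replicate block and 567, 578 and 574 without neuron cell replicate 1, 2 or 3). Cells of astrocytes against neurons went from 5981 to 3148 and their sEVs from 2309 to 4176 in the fit of all 18 libraries, and the sEVs to 452, 582 and 594 without neuron sEV replicate 1, 2 or 3. Quantile normalization gave 2624 higher and 2681 lower in astrocyte sEVs (1569 and 3646 as deposited), 2957 and 2402 in microglia (996 and 4151) and 3615 and 3439 in neurons (2185 and 3705). Raw reads are unknown, so values of single digits may rest on few reads, and libraries at 0 make log2 values depend on the pseudocount.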
